A study of Mus musculus with 4 samples.

Results

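A total of 53 genes had a lower signal in macrophages given lipopolysaccharide (LPS) and a signal raised again when the caspase inhibitor zVAD was added to LPS. They were drawn from 12203 genes that passed a filter on low signals, meaning that at least 1 of the 4 arrays reached log2 6.47, the median of the whole table. A member had a log2 difference of -1 or less between LPS and Control and of 1 or more between LPS/zVAD and LPS, which is 2-fold or more in both steps. Both conditions were met by 63 genes, of which 10 were left out by name (Cdc20, Insig1, Mcm4, Plau, Pparg and 5 solute carrier genes). The chemokine receptor gene Cxcr4, 7 linker and core histone genes, the RNA decay factor gene Zfp36l2 and several regulators of small GTPases were among the members. Control, LPS and LPS/zVAD signals chose these genes, so their values on those arrays are a description and carry no test.

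Marrow of female BalbC (BALB/c) mice was differentiated into macrophages over 7 days with medium from L929 cells, which secrete the macrophage growth factor M-CSF. L929 medium made up 30% of the culture medium and 10% for the last 48 h, so it was present in all 4 conditions. Control cells were left untreated, LPS cells received 10 ng/ml of LPS, LPS/zVAD cells also received 50 µM zVAD, and LPS/zVAD/Nec-1 cells also received 30 µM necrostatin-1 (Nec-1). Each condition had 1 Affymetrix array made from 250 ng of RNA, so no spread between replicates could be measured and no p-value was computed. The sources used here do not give treatment times, and zVAD alone, Nec-1 alone and LPS with Nec-1 were not analysed here.

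LPS is sensed by the receptor TLR4, which turns on inflammatory genes and halts the proliferation that M-CSF drives in cultured macrophages. Caspase 8 normally keeps the kinases RIPK1 and RIPK3 in check. With caspases inhibited, TLR4 signalling can engage both kinases, which leads to necroptosis, a lytic form of cell death, and to further changes in transcription; Nec-1 inhibits the kinase activity of RIPK1.

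Array medians lay between log2 6.41 and 6.52, and the highest signals between 14.5 and 14.6. The Control array correlated with the 3 LPS-treated arrays at r = 0.959 to 0.968 over all probes, and those 3 arrays with each other at 0.984 to 0.992. Of 24 measured macrophage identity genes 22 passed the filter, and Cd163 and Gpr34 did not. This list, like the others used here, was chosen with earlier results of these data known. In it 6 genes were 2-fold or more lower with LPS/zVAD than with LPS and 0 higher, against 3.59% and 3.25% of all filtered genes. The 6 lower genes included Cx3cr1 (10.46 after LPS, 8.80 after LPS/zVAD) and Ccr2 (11.04 and 9.02). Csf1r, the M-CSF receptor gene, had log2 signals of 12.80 in Control, then 12.14, 11.99 and 12.01 on the LPS, LPS/zVAD and Nec-1 arrays, and Lyz2 (lysozyme) had 14.05, 14.01, 13.98 and 13.93. Among 7 lists of markers of other cell types, 40 of 77 measured genes passed the signal filter. Of these 0 met both conditions, which 0.516% of all filtered genes met, so a count of 0 sets these lists apart in no way. RNA came from whole cultures, in which fewer cells of a type and less RNA per cell cannot be told apart.

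Of all genes that passed the filter, 879 (7.2%) were 2-fold or more lower with LPS than in Control, 396 (3.25%) were 2-fold or more higher with LPS/zVAD than with LPS, and 63 (0.516%) were both. The 53 members make up 0.434% of the filtered genes. Their median log2 signal was 9.87 in Control, 7.92 after LPS, 9.41 after LPS/zVAD and 8.07 once Nec-1 was present too. The LPS step had a median log2 difference of -1.65 and ran from -4.66 in Rasgrp3 to -1.0 in Naa50. The zVAD step had a median of 1.37 and ran from 1.02 in Nt5dc3 to 3.18 in Cxcr4. Over all filtered genes the same medians were -0.12 and -0.05.

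**Figure D1:**
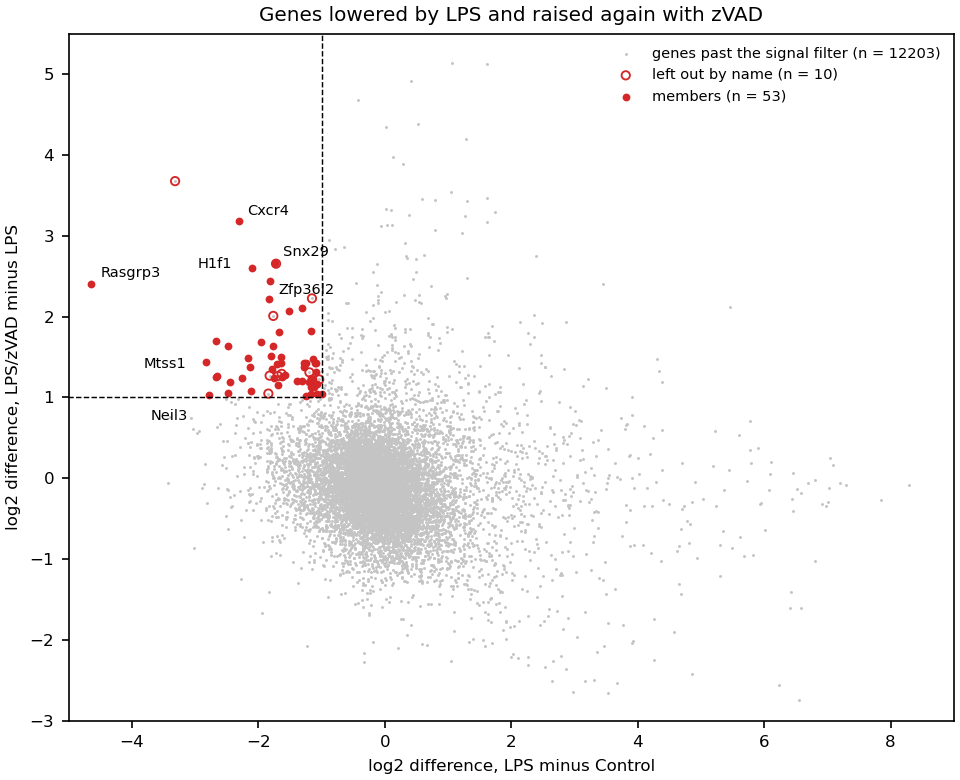
Each point is a gene past the signal filter (n = 12203), with the log2 difference of LPS minus Control on the horizontal axis and of LPS/zVAD minus LPS on the vertical axis. Dashed lines mark -1 and 1, filled circles the 53 members and open circles the 10 genes left out by name. Rasgrp3 lies farthest left at -4.66 and Cxcr4 is the highest member at 3.18.

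Many genes lay close to the limits. The members nearest the zVAD limit were Nt5dc3 (log2 difference 1.02), Neil3 (1.03), Cd300c2 (1.04), Got1 (1.04) and Naa50 (1.05). Genes just outside it included Srpk2 (0.98), Rapgef5 (0.97), Arhgap11a (0.96) and Zfp367 (0.96). On the LPS side Naa50 (-1.0), Cd300c2 (-1.07), H2bc3 (-1.08) and Reps2 (-1.09) were just inside, and Ddias (-0.99), Blm (-0.98) and Retreg1 (-0.96) just outside. Membership of a gene at these margins therefore turns on a few hundredths of a log2 unit.

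Histone genes formed the largest family among the members, with 4 H2B genes (H2bc3, H2bc8, H2bc9, H2bc14), 1 H2A gene (H2ac4) and the linker histone genes H1f1 and H1f5. Replication-dependent histone genes lie in clusters, supply new nucleosomes during S phase and give messages that end in a stem-loop in place of a poly(A) tail. All 7 lie on chromosome 13, which holds 8 of the 53 members, and H2bc3 and H2ac4 are direct neighbours with 0 protein-coding genes between them. The share of other histone genes on that chromosome is not given here, so the count is no trait particular to the members. The 150 bases before the transcription start sites of the 7 histone members are shown because histone promoters are known for short shared elements. Sequences are from RefSeq on GRCm38.p6, printed 5′ to 3′ on the gene's strand. Capitals mark, on either strand, TATAAA, the CCAAT box, the octamer ATTTGCAT known from H2B promoters, and AAACACA, the AC box known from H1 promoters.
H2bc3: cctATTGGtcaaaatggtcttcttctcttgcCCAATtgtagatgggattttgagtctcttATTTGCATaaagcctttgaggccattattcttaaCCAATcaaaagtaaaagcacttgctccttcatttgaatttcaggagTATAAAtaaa
H2bc8: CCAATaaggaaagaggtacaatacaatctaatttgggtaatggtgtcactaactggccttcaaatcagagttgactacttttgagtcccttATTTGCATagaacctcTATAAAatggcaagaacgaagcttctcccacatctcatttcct
H2bc14: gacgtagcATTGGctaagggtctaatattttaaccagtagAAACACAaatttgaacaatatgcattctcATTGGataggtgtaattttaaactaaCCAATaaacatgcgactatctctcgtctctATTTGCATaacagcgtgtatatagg
H2bc9: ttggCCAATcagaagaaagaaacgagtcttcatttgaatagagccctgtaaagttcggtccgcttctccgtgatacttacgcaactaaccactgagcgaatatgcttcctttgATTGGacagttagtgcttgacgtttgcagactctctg
H2ac4: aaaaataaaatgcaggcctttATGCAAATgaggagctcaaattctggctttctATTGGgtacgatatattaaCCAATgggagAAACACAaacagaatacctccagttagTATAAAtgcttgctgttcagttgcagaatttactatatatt
H1f1: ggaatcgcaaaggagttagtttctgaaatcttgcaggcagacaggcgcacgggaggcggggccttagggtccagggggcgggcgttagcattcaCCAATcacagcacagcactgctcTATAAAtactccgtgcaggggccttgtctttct
H1f5: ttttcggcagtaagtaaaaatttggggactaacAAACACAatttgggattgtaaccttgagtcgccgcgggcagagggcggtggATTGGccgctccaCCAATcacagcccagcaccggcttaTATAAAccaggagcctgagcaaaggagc
These stretches lie at chr13:23746584-23746733 (+ strand), chr13:23571250-23571399 (+ strand), chr13:21721894-21722043 (+ strand), chr13:23543445-23543594 (- strand), chr13:23750938-23751087 (+ strand), chr13:23763518-23763667 (+ strand) and chr13:21780626-21780775 (- strand).

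A CCAAT box was found in the promoters of 7 of the 7 histone members and TATAAA in 5 of them, counted in windows of 300 bases (250 before to 50 after the start). Of all 32851 RefSeq windows of that length, 37.4% held a CCAAT box and 13.6% held TATAAA. In the 51 windows of cluster histone genes that were no members the shares were 84.3% and 56.9%. The octamer was present in H2bc3, H2bc8, H2bc14 and H2ac4 and in 1.74% of all windows. It was found in 4 of 11 windows of H2B genes that were no members and in 17.6% of all 51 histone windows outside the module. The AC box was present in H1f5, H2ac4 and H2bc14, in 9.8% of those 51 windows and in 7.18% of all windows. With 7 histone members these shares are a description, and a match is a description of the letters and not a known binding site.

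H1f1 (probe 10404069), an H1 gene, was the histone member with the largest zVAD step, with log2 signals of 11.23 (Control), 9.13 (LPS), 11.73 (LPS/zVAD) and 9.76 (LPS/zVAD/Nec-1). Its LPS signal was 4.31-fold below Control, and the signal was 6.1-fold higher with LPS/zVAD than with LPS, and 3.93-fold lower again with Nec-1. H2ac4 had 11.03, 9.20, 11.42 and 9.61 in the same order. Both exceeded their Control signal with LPS/zVAD and stayed below it with Nec-1. H1f5 had 12.01, 9.53, 11.18 and 9.85, so its LPS/zVAD signal stayed 1.78-fold below Control. Among the H2B genes, H2bc14 had 12.51, 10.86, 12.37 and 11.40. H2bc3 had 12.06, 10.99, 12.15 and 11.22, and H2bc9 had 11.71, 10.54, 11.67 and 10.89. These 3 were within 1.11-fold of Control with LPS/zVAD and less than 2-fold lower with Nec-1. H2bc8, the weakest of the family at 9.32, 8.19, 9.41 and 8.07, was the histone member whose Nec-1 signal was below its LPS signal.

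The other cluster histone genes were examined with the members. Of 26 histone genes with a probe of their own, 21 passed the filter. Of these, 9 were 2-fold or more lower with LPS, 10 were 2-fold or more higher with LPS/zVAD and 7 were 2-fold or more lower with Nec-1. Over all filtered genes the shares were 7.2%, 3.25% and 3.32%. The 7 members are among the 9 and the 10 by the rule that chose them. All 21 moved down, up and down again by some amount on the deposited scale, with medians of -0.94, 0.98 and -0.93. For the 7 members the first 2 directions were fixed by the rule. Over all filtered genes the medians were -0.12, -0.05 and 0.07. By any amount, 55.2% of all genes were not higher with LPS/zVAD than with LPS, and 40.2% were lower with Nec-1. H3c15 had a log2 signal of 7.09 in Control but 5.11, 5.37 and 5.09 on the later arrays, under the filter level of 6.47. Its zVAD and Nec-1 steps therefore have no interpretable size, and counted from that level it would not pass the LPS limit. H2bc4 was lower with LPS by 0.01 and was not below Control when arrays were centred on their medians or cyclic loess was applied. The 14 histone genes that were no members included 2 past the LPS limit (H4c14 and H3c15) and 3 past the zVAD limit, and 3 were 2-fold or more lower with Nec-1. Without the members the medians of the 14 were -0.83, 0.76 and -0.55. A further 26 probes were annotated to several histone genes and gave 24 distinct sets of values. They had median differences of -0.81, 0.72 and -0.41, and 2 passed 2-fold with LPS, 0 with zVAD and 0 with Nec-1. Their Control signals reached log2 14.27, near the top of the range of the arrays. Near-identical copies can share probe sequences, so the values of single histone genes are uncertain.

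**Figure D2:**
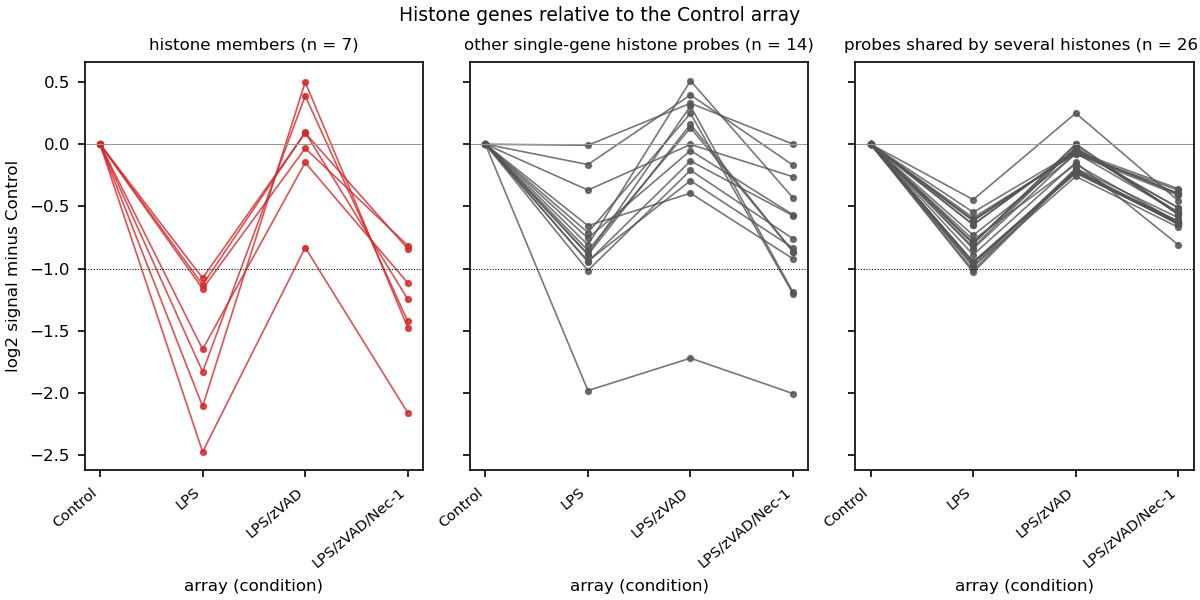
Log2 signal minus that on the Control array (vertical axis) for the 4 arrays (horizontal axis), with a line per probe and a dotted line at -1. The panels hold the 7 histone members, the 14 other histone genes with a probe of their own past the filter, and the 26 probes shared by several histone genes. In every panel the lines dip with LPS, come up with LPS/zVAD and dip again with Nec-1, and the 7 members dip by 1.08 to 2.47 with LPS. In the middle panel H3c15 was under the filter level on all arrays but Control.

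Genes of chromatin assembly, replication and repair made up another 9 members. Chaf1b encodes a subunit of the CAF-1 complex, which deposits histones behind the replication fork, and had log2 signals of 10.02 in Control, 7.57 after LPS, 8.76 after LPS/zVAD and 7.73 after LPS/zVAD/Nec-1. Wdhd1, a replication fork factor, had 9.64, 7.48, 8.97 and 7.44. Neil3, a DNA glycosylase gene, had 9.35, 6.57, 7.60 and 6.73. In these 3 genes LPS/zVAD regained between 37.2% and 69.1% of the LPS loss on the log2 scale. Wee1, whose kinase restrains entry into mitosis, had 10.17, 8.55, 9.80 and 8.67, and Stil, a centriole assembly gene, had 8.90, 7.33, 8.60 and 7.39. The repair genes Fignl1 and Hmces, the replication-linked protease gene Fam111a and the chromatin protein gene Hmga2 were at or above Control with LPS/zVAD. Hmga2 had 10.59, 9.49, 10.81 and 9.54, and Fignl1 had 8.97, 7.73, 9.16 and 7.74. Fam111a had 10.50, 9.22, 10.59 and 9.68, and Hmces had 8.50, 7.38, 8.51 and 7.66. With Nec-1 all 9 genes of this group were below Control, and 7 were so by 2-fold or more. Over all filtered genes 57.7% were below Control with Nec-1, and 7.68% by 2-fold or more. Among the 816 genes lowered by LPS and not raised with LPS/zVAD the shares were 100% and 85.2%.

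Most listed genes of the cell cycle were lower with LPS and did not reach 2-fold with LPS/zVAD. Of 31 measured genes of a DNA replication and G1/S list, 25 were 2-fold or more lower with LPS (median -1.63) and 2, Mcm4 and Cdt1, were 2-fold or more higher with LPS/zVAD (median 0.33). Of 17 mitosis and G2/M genes, 14 were lower with LPS (median -1.53) and 1, Cdc20, was higher with LPS/zVAD (median 0.06). With Nec-1 added, 2 genes of the former list and 1 of the latter were 2-fold or more lower, with medians of -0.14 and 0.22. Mcm4 and Cdc20 met both conditions but were left out by name. For comparison, 7.2% of all filtered genes were lower with LPS, 3.25% higher with LPS/zVAD and 3.32% lower with Nec-1. In lists of this size, 1 or 2 genes past 2-fold with LPS/zVAD or with Nec-1 is no result about them.

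Cxcr4, the receptor gene for the chemokine CXCL12, had the largest zVAD step of all members. On probe 10357472 its log2 signals were 9.39 in Control, 7.08 after LPS, 10.25 after LPS/zVAD and 7.99 after LPS/zVAD/Nec-1. The LPS/zVAD array was the highest of the 4 and the LPS array the lowest. The LPS signal was 4.97-fold below Control, and the signal was 9.05-fold higher with LPS/zVAD than with LPS, and 4.79-fold lower with LPS/zVAD/Nec-1 than with LPS/zVAD. It remained 2.63-fold below Control with Nec-1, and 0.92 above LPS on the log2 scale, the largest such remainder among the 53 members. The 250 bases before its RefSeq start are shown because they hold a match to the EGR pattern. They lie at chr1:128592300-128592549 (- strand) of GRCm38.p6, and capitals mark the EGR match and TATAAA on either strand.
Cxcr4: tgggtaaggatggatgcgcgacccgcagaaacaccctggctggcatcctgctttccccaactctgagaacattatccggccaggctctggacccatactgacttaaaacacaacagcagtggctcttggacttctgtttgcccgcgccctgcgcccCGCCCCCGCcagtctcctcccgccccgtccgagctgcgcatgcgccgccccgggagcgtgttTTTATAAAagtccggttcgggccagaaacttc
The EGR match begins at position -94 from the start, and the TATAAA matches on the 2 strands overlap.

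The other 5 genes of receptors and channels had smaller zVAD steps than Cxcr4. Kcnk13 encodes a potassium leak channel and had log2 signals of 9.45, 7.92, 9.99 and 8.35 in the order of the 4 conditions. Cd300c2, an activating receptor gene of the CD300 family, had 10.55, 9.48, 10.52 and 9.66. Nrcam, a cell adhesion molecule gene, had 7.86, 6.66, 7.85 and 6.66. Kcnk13 thus exceeded Control with LPS/zVAD, whereas Cd300c2 and Nrcam returned to within 0.03 of it.

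Cd28 and Sh2d1b1 lay near the filter level. Cd28, best known as a co-stimulatory receptor of T cells, had 8.22 in Control and 7.18 with LPS/zVAD, against 6.11 with LPS and 5.99 with Nec-1, both under the filter level of 6.47. Sh2d1b1, an adaptor gene of SLAM family receptors, had 6.75, 5.64, 7.06 and 5.38. Counted from the filter level, Cd28 was at least 3.37-fold lower with LPS and at least 1.64-fold higher with LPS/zVAD, so it would not meet the second condition. Of 12 measured T and NK cell markers 3 passed the filter, and Cd3d, Cd3g and Cd8a were under the filter level on all 4 arrays. Cd3e had log2 signals of 6.61, 6.20, 6.63 and 6.77, and Cd4 ran from 6.23 in Control to 6.71 after LPS/zVAD, both close to that level. Cd3e was thus lower after LPS and higher after LPS/zVAD, as Cd28 was, by less than 2-fold in each step, but it was not lower with Nec-1. The summed linear signal of these 12 genes was 2100 in Control, 2750 after LPS, 5317 after LPS/zVAD and 2922 after LPS/zVAD/Nec-1. Most of it came from Il7r, with log2 signals of 10.60, 11.15, 12.21 and 11.19. The part of these markers in the Cd28 result was not tested.

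Regulators of small GTPases and of vesicle traffic accounted for 8 members. Rasgrp3, which encodes an exchange factor that activates Ras and Rap, had the largest LPS step of all 53. On probe 10446965 its log2 signals were 9.87 in Control, 5.21 after LPS, 7.62 after LPS/zVAD and 5.86 after LPS/zVAD/Nec-1. The LPS and Nec-1 signals were under the filter level, from which Rasgrp3 was at least 10.5-fold under its Control signal after LPS and at least 2.22-fold higher with LPS/zVAD than with LPS. Its LPS/zVAD signal stayed 4.75-fold below Control. Arhgap18, a GTPase-activating protein gene for RhoA, had 10.21, 7.95, 9.19 and 8.26. Its LPS/zVAD signal was 2.03-fold below Control, and less than 2-fold below it under another scaling (a log2 difference of -0.81).

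The Arf GTPase-activating protein genes Arap2 and Arap3 and the Arf exchange factor relative Arfgef3 differed in how far they came back. Arap2 had log2 signals of 8.71, 7.06, 8.49 and 7.58 in the order of the 4 conditions. Arap3 had 8.81, 7.53, 8.96 and 7.75. Arfgef3 had 8.30, 7.13, 8.95 and 7.52, which put its LPS/zVAD signal 1.57-fold above Control. Eps8, an adaptor gene that links growth factor receptors to Rac and actin, had 9.06, 7.29, 8.93 and 7.20, and Reps2, an endocytosis adaptor gene, had 7.78, 6.69, 8.11 and 6.87. Snx29, a sorting nexin gene, had 8.97, 7.23, 9.90 and 7.57 on its brighter probe, the second largest zVAD step of the members at 6.36-fold. Its other probe read 7.29, 6.80, 6.82 and 6.65, where the zVAD step was absent, so the Snx29 result holds for 1 of its 2 probes.

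A list of 26 measured small GTPase and G protein regulators contained Rasgrp3 and Arhgap18. In it 4 genes were 2-fold or more lower with LPS and 8 higher (8.24% of all genes were higher), 10 were higher with LPS/zVAD and 1 lower (3.59% of all genes were lower), and 8 were lower with Nec-1. The medians of the zVAD and Nec-1 steps were 0.46 and -0.56, against -0.05 and 0.07 over all filtered genes. Among 52 measured early response genes of the ERK, SRF and AP-1 pathways, 12 were higher with LPS and 5 lower (Klf10, Dusp6, Spred2, Etv5 and Myc), with a median of 0.44, against 8.24% and 7.2% of all genes. With LPS/zVAD 15 were higher and 2 lower (3.25% and 3.59% of all), and 15 were lower with Nec-1 (3.32% of all). None of the 52 met both conditions, which 0.516% of all genes met. Both lists were chosen with earlier results of these data known, and Rasgrp3 and Arhgap18 count by the rule. These counts and medians are therefore a description.

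Genes of the cytoskeleton numbered 4, and each stayed below Control with LPS/zVAD on the deposited scale, Mical1 by 0.18, which turned to 0.02 above Control under another scaling. Mtss1, a membrane-bending regulator of actin, had log2 signals of 10.05 in Control, 7.22 after LPS, 8.66 after LPS/zVAD and 7.63 after LPS/zVAD/Nec-1. Ssh2, a phosphatase gene that activates cofilin, had 11.28, 8.79, 9.85 and 8.78. Its other probe read 8.23, 6.43, 6.60 and 5.43 and did not show the zVAD step at 2-fold. Mical1, whose product oxidises actin, had 8.94, 7.55, 8.75 and 7.69, and Nav2, a gene of microtubule-linked proteins, had 8.35, 6.60, 7.85 and 7.02. Mtss1 and Ssh2 remained 2.63-fold and 2.7-fold below Control with LPS/zVAD.

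Zfp36l2 encodes an AU-rich element binding protein that speeds the decay of target messages. On probe 10453272 its log2 signals were 11.27 in Control, 9.46 after LPS, 11.90 after LPS/zVAD and 10.00 after LPS/zVAD/Nec-1. The step from LPS to LPS/zVAD was 5.42-fold, and the LPS/zVAD array was the highest of the 4. Nop58, a core protein gene of box C/D small nucleolar RNPs, had 10.05, 8.25, 9.76 and 8.24. Rrp12, a factor for export and maturation of ribosomal subunits, had 8.40, 7.23, 8.47 and 7.49. With Nec-1, Nop58 was within 0.01 of its LPS signal.

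In the list of ribosome biogenesis and polyamine synthesis, 14 of 22 measured genes were 2-fold or more lower with LPS (median -1.11). With LPS/zVAD 3 were higher, Nop58, Wdr43 and Rrp12 (median 0.22), and 2 were lower with Nec-1 (median -0.35). Over all genes 7.2% were lower with LPS, 3.25% higher with LPS/zVAD and 3.32% lower with Nec-1. The list was chosen with earlier results of these data known, and Nop58 and Rrp12 count by the rule. Wdr43 had log2 signals of 10.76, 10.44, 11.51 and 10.66 and missed the LPS limit. In the sterol synthesis and uptake list, 6 of 16 were lower with LPS (median -0.69) and 1, Insig1, was higher with LPS/zVAD (median 0.08), a share near that of all genes. Lists of M-CSF receptor signalling (21 measured), the integrated stress response (16), adhesion, matrix and cytoskeleton (28) and macrophage identity (24) contained 0 genes that met both conditions. At a share of 0.516% over all genes, a count of 0 in lists of this size is no result about them.

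Enzymes and transporters of metabolism and protein modification contributed 9 members. Hal encodes histidine ammonia-lyase, the first enzyme of histidine breakdown, and had log2 signals of 11.28 in Control, 8.60 after LPS, 9.86 after LPS/zVAD and 8.36 after LPS/zVAD/Nec-1. It was 6.4-fold lower with LPS, and its Nec-1 signal was the farthest below LPS in percent of the zVAD step (-19.1%). Pdxk, the pyridoxal kinase gene that makes active vitamin B6, had 11.02, 8.37, 9.63 and 8.53. Daglb, a lipase gene that releases the endocannabinoid 2-AG, had 10.05, 7.92, 9.29 and 8.35. These 3 genes remained below Control with LPS/zVAD, by 2.68-fold, 2.62-fold and 1.69-fold.

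Xylt1 encodes the xylosyltransferase that starts glycosaminoglycan chains, and had 9.58, 7.92, 9.73 and 8.38. Atp13a3, a polyamine transporter gene, had 10.90, 9.19, 10.61 and 9.22, and its other probe read 6.62, 5.58, 6.42 and 5.18. Adss, of purine nucleotide synthesis, had 11.26, 10.13, 11.28 and 10.11. Got1, the cytosolic aspartate aminotransferase gene, had 11.22, 10.05, 11.10 and 10.31, and Naa50, an N-terminal acetyltransferase gene, had 11.65, 10.65, 11.69 and 10.74. Mid1ip1, which stimulates acetyl-CoA carboxylase, had 10.83, 9.14, 10.30 and 9.18. Its other probe was flat at 7.34, 7.23, 7.14 and 7.30. Among the 4 members with several probes, the second probes of Snx29 and Mid1ip1 gave zVAD steps of 0.02 and -0.10. That of Ssh2 gave 0.17, from an LPS signal of 6.43 just under the filter level. The second probe of Atp13a3 gave 0.84, but its LPS and LPS/zVAD signals were both under that level. This step therefore has no interpretable size.

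The remaining 7 members were membrane proteins and genes of less defined roles. Pmp22, a tetraspan membrane protein gene, was the brightest member, with log2 signals of 13.61 in Control, 12.30 after LPS, 13.50 after LPS/zVAD and 12.53 after LPS/zVAD/Nec-1. Lonrf3, a RING finger protein gene, had 9.78, 7.11, 8.81 and 7.23. Tmem267 had 8.04, 6.74, 8.85 and 7.03 and regained the largest share of its LPS loss with LPS/zVAD (162%). Tmem65 had 10.16, 9.02, 10.49 and 8.87, and Nt5dc3 had 8.68, 7.44, 8.46 and 7.72. Gask1b had 8.20, 6.24, 7.93 and 6.20, and its neighbour on the chromosome, Tmem144, had 7.53, 5.74, 7.08 and 6.23. Between Tmem144 and Gask1b lie 0 protein-coding genes. The LPS and Nec-1 signals of both were under the filter level, from which Gask1b was at least 3.32-fold lower with LPS and at least 2.75-fold higher with LPS/zVAD. Tmem144 was at least 2.08-fold lower and at least 1.53-fold higher, so it would not meet the second condition.

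**Figure D3:**
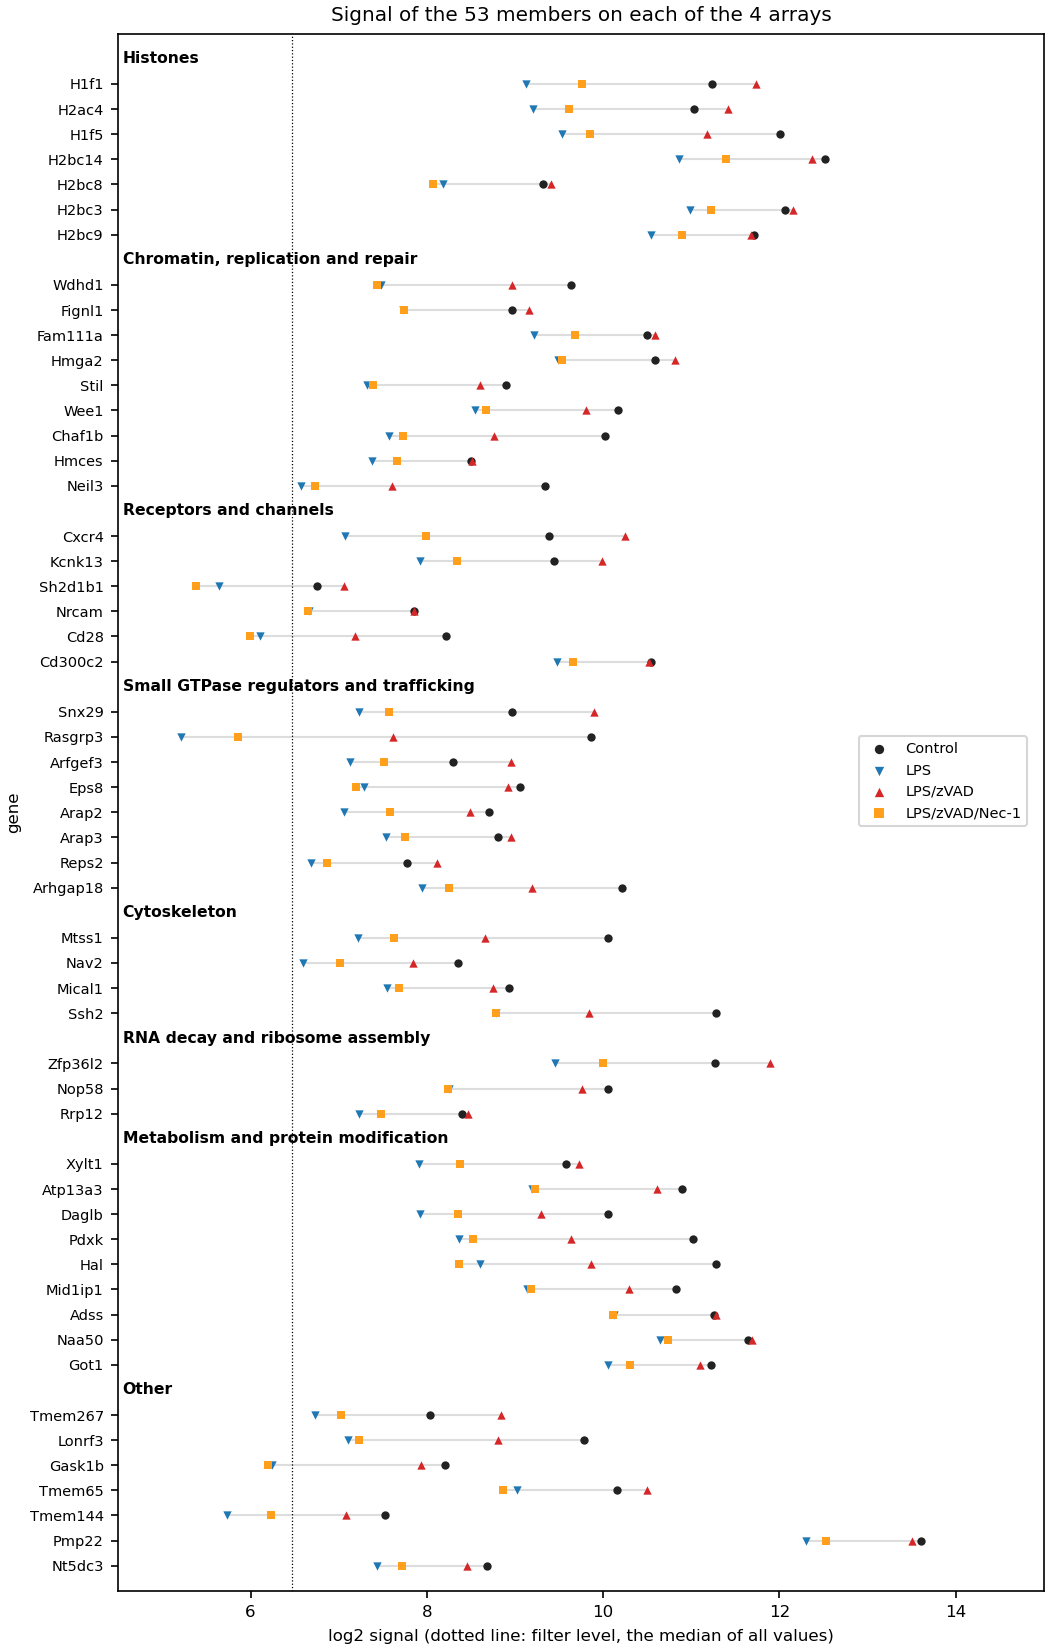
Log2 signals of the 53 members on the 4 arrays, grouped by role, with 1 symbol per array (circle, Control; downward triangle, LPS; upward triangle, LPS/zVAD; square, LPS/zVAD/Nec-1) and a dotted line at the filter level of 6.47. Squares lie close to the LPS triangles in most rows, and 5 members (Cd28, Gask1b, Rasgrp3, Sh2d1b1 and Tmem144) have symbols left of the line.

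The extent of return with LPS/zVAD varied. LPS/zVAD signals were within 2-fold of Control for 44 members and 2-fold or more below it for 9, and 0 were 2-fold or more above. Over all filtered genes 80.5% were within 2-fold, 10.7% below and 8.79% above. By any amount, 22 members (41.5%) exceeded Control and 31 (58.5%) were under it, near the 38.2% and 61.8% of all filtered genes. Of the members, 9 changed sides under at least 1 other scaling of the arrays. The share of the LPS loss regained had a median of 91.8% over all 53 members and ran from 37.2% in Neil3 to 162% in Tmem267. That median includes Cd28, Gask1b, Rasgrp3, Sh2d1b1 and Tmem144. Their LPS signals were under the filter level, so their own shares have no interpretable size. All shares of the loss regained use the arrays that chose the members.

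The LPS/zVAD/Nec-1 array took no part in choosing the members, although each comparison with it shares an array with the rule. With Nec-1 added, 36 of the 53 members (67.9%) were 2-fold or more lower than with LPS/zVAD alone, against 3.32% of all filtered genes, and 0 were 2-fold or more higher, against 1.14%. All 53 were lower by some amount, by -0.74 to -2.32 on the log2 scale (median -1.20), on the deposited scale and under the 3 other scalings. On the deposited scale 40.2% of all filtered genes were lower by some amount. All 53 were also at or under the midpoint of their LPS and LPS/zVAD signals, as were 43.8% of all genes. Both counts share the LPS/zVAD array with the choice of members, and the part of measurement error in them was not tested. Among 333 genes that were raised with LPS/zVAD without being lowered by LPS, 261 (78.4%) were 2-fold or more lower with Nec-1 and 327 (98.2%) were at or under the midpoint. Among 816 genes lowered by LPS and not raised with LPS/zVAD, 13 (1.59%) were 2-fold or more lower with Nec-1 than with LPS/zVAD.

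Compared with Control, 42 members (79.2%) were 2-fold or more lower with LPS/zVAD/Nec-1, against 7.68% of all filtered genes and 85.2% of the 816 LPS-lowered genes that zVAD did not raise. All 53 were below Control by some amount, with a median log2 difference of -1.30 and a range of -4.01 in Rasgrp3 (a bound of at least 10.5-fold) to -0.78 in Arfgef3. By any amount, 57.7% of all filtered genes and 100% of the 816 were below Control. Compared with LPS, 0 members were 2-fold or more higher and 0 were 2-fold or more lower with LPS/zVAD/Nec-1, where 0.0738% and 0.541% of all genes were. The median log2 difference from LPS was 0.22 over the 53, and in the 48 members above the filter level on all arrays it ran from -0.24 in Hal to 0.92 in Cxcr4. It was 0.04 in the 816 genes lowered by LPS and not raised, 0.21 in the 333 genes raised and not lowered, and -0.02 over all genes. In 39 of those 48 members the signal with Nec-1 was above that with LPS and in 9 below, and 8 of all 53 changed sides under at least 1 other scaling. The signal with Nec-1 was also above that with LPS in 45.6% of all genes, 57.2% of the 816 and 78.1% of the 333. The LPS array took part in choosing the members.

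The part of the zVAD step that remained with Nec-1 was taken over the 48 members at or above the filter level on all 4 arrays. It had a median of 15.7%, and was under 0% in 9 members, from 0% to under 20% in 20 and 20% or more in 19. Cd28, Gask1b, Rasgrp3, Sh2d1b1 and Tmem144 give no remainder, because both their LPS and their Nec-1 signals were under the filter level. The highest remainders were in Arap2 (36.6%) and H2bc14 (35.5%). Cxcr4 kept 28.9%, H1f1 24.3% and Zfp36l2 22.3%. Nop58, Nrcam, Fignl1, Ssh2 and Adss lay within 2% of 0. No remainder reached 50%.

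Promoters were available for 43 members in 57 RefSeq windows of 300 bases (GRCm38.p6), and not for Zfp36l2, Atp13a3, Tmem65, Wee1, Xylt1, Mtss1, Arap3, Eps8, Rrp12 and Cd28. Both strands were searched, and overlaps between patterns were kept. The AP-1 pattern TGANTCA was found in 8 of the 57 windows and in 7.81% of all 32851 windows. They belonged to Sh2d1b1, Gask1b, Arap2, Arfgef3, Arhgap18, Hal, H1f5 and Snx29. The EGR patterns GCGGGGGCG and GCGTGGGCG were found in 5 windows (8.77%; 3.47% of all), of Cxcr4, Adss, Arap2, Tmem267 and Chaf1b. The E2F patterns TTTCCCGC and TTTGGCGC were found in 3 windows (5.26%; 1.56% of all), of Nop58 and of 2 overlapping windows of Naa50. The CRE TGACGTCA (1.75%; 1.79% of all), the ETS pattern CCGGAAGT (3.51%; 3.89%) and the CArG box (1.75%; 1.63%) were found in 1, 2 and 1 windows. Outside the histone genes, TATAAA was in 12% and the CCAAT box in 32% of 50 member windows, against 13.6% and 37.4% of all. With few windows a single promoter moves each share, and nothing was concluded from these matches about binding.

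The 10 genes left out by name met both conditions too, so their profile over Control, LPS and LPS/zVAD was fixed by that choice. With LPS/zVAD/Nec-1, 9 were 2-fold or more lower than with LPS/zVAD, and 7 were 2-fold or more below Control. The shares over all filtered genes were 3.32% and 7.68%. Among genes raised and not lowered 78.4% were lower with Nec-1, and among genes lowered and not raised 85.2% were below Control. The scale between arrays affected the margins of the module. With each array centred on its median the median difference of all genes between LPS and Control moved from -0.12 to -0.01, and 45 genes met the rule. After quantile normalization 65 did and after cyclic loess 60. Of the 53 members, 44 met it under all 3 scalings, and Cd300c2, Got1, H2bc3, Hmga2, Naa50, Neil3, Nt5dc3, Reps2 and Sh2d1b1 missed it under at least 1.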

How the data were processed

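Gene expression of bone-marrow-derived macrophages was measured on 4 Affymetrix arrays, 1 per condition, grouped by the sample titles. The deposited values are gene-level log2 signals. Per the submitters' processing notes, the authors made them in Affymetrix Expression Console. The sources used here do not give its version or the normalization between arrays, so a shift between arrays could move every difference. Symbols came from GEO's platform annotation: of 35556 probes, 21789 had 1 symbol, 1621 several and 12146 none. Of 19938 genes, each read from its brightest probe by the mean of the 4 arrays, 12203 passed the filter and 7735 did not.

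Differences of log2 signals were taken between single arrays, with 2-fold as a rule of size and no test. Signals under the filter level were set to it for folds given as "at least". Members and gene lists were chosen with earlier results of these data known. Roles, and the CCAAT box, octamer and AC box patterns, were chosen after the members' names were seen, the roles with their values. The 17 lists held 355 genes, of which 330 were measured. All 53 members were named. Non-members were named from the lists, among those nearest the limits or to complete a small count. RefSeq promoter windows were matched by gene. The scripts were tested on simulated data. Python 3.11.15, pandas 2.3.3, numpy 2.4.6, R 4.3.3 and limma 3.58.1 were used, and figures were drawn with matplotlib 3.10.9. Alternatives were 3 scalings, 3 treatments of low signals, the mean of all probes and thresholds of 1.5-fold and 3-fold. Precision is limited by the number of arrays.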

Additional observations from a re-analysis of the deposited data

How the results depend on the processing

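The count of members, and the counts of members lower with Nec-1, at or under the midpoint, below Control with Nec-1 and within the threshold of Control with LPS/zVAD, stayed within 1.5 times of the reported values under 7 of 9 alternatives. These were centred arrays, quantile normalization, cyclic loess, no filter, Control and LPS/zVAD both at or above the filter level, low signals set to that level, and the mean of all probes, with 45 to 65 members. The thresholds moved all 5 counts. The changed threshold was also used for the counts of members lower with Nec-1, below Control and within the threshold of Control. At 1.5-fold 259 genes met the rule. Of these, 192 were 1.5-fold or more lower with Nec-1 than with LPS/zVAD and 240 were at or under the midpoint. With Nec-1, 210 were 1.5-fold or more below Control, and 165 were within 1.5-fold of Control with LPS/zVAD. At 3-fold 11 genes met the rule, with 8, 11, 5 and 10 in the same order. Setting low signals to the filter level removed Cd28, Sh2d1b1 and Tmem144, and averaging probes removed Mid1ip1 and Ssh2. No paired analysis was possible because each condition had 1 array, and for the same reason no replicate could be left out. A difference with 1 signal under the filter level (log2 6.47) is a bound, and one with both signals under it has no interpretable size.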

Other observations

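Among probes that could not be named, 17 of 4978 probes without a symbol that passed the filter (0.342%) met both conditions, and 5 of them were 2-fold or more lower with Nec-1. Of 865 probes with several symbols, 0 met both. In the opposite direction, 176 genes were 2-fold or more higher with LPS than in Control and 2-fold or more lower with LPS/zVAD than with LPS (median log2 differences 1.81 and -1.37). With Nec-1, 50 of them (28.4%) were 2-fold or more higher than with LPS/zVAD, against 1.14% of all filtered genes, with a median difference of 0.81. At or above the midpoint of LPS and LPS/zVAD were 103 (58.5%). Of all filtered genes 43.8% were at or under that midpoint. That share covers genes raised and genes lowered with LPS/zVAD, so it is no like measure for the 58.5%. The 176 genes were set apart after the values were seen and no test was made.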
